A study of Mus musculus with 24 samples.

Results

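Transcripts of 10 Notch pathway genes were followed through the RNA-Seq libraries of NIH 3T3 cells that stably carry YAP, TAZ or their sarcoma fusion proteins. The genes were taken by name and found by their Ensembl identifiers among the 39017 identifiers of each count file. They are the receptors Notch1, Notch2 and Notch3, the ligands Jag1, Jag2 and Dll1, and the target genes Hes1, Hey1, Heyl and Nrarp.

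Notch receptors are single-pass membrane proteins that are activated by Jagged or Delta-like ligands on a neighbouring cell. Ligand binding exposes the receptor to ADAM metalloproteases and then to gamma-secretase, and the released intracellular domain enters the nucleus, where it joins the DNA-binding protein RBPJ and Mastermind-like coactivators. Genes switched on by this complex include Hes and Hey family repressors and Nrarp, an inhibitor of the complex. Because ligand and receptor sit on different cells, signalling depends on contact between cells.

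NIH 3T3 is an immortalised mouse embryonic fibroblast line. All 24 libraries, 3 in each of 8 groups, came from cells transduced with a retroviral vector and selected with G418, and replicates were separate transductions grown as pooled lines. EV is the empty vector. TAZ4SA and YAP5SA are TAZ and YAP with the serines phosphorylated by LATS kinases changed to alanine, TAZ-CAMTA1 and YAP-TFE3 are the fusion proteins of epithelioid hemangioendothelioma, and TFE3 and CAMTA1 are the full-length fusion partners. Cells of these groups had been confluent for 48 h at collection, except CAMTA1, which was collected at sub-confluence and was compared with EVsub, an empty vector group labelled sub-confluent. All introduced proteins were driven from the same viral vector, so the groups describe pools of a cell line under forced expression.

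Total counts ran from 16471181 to 30132586 per library, with a median of 22298975. Replicates correlated with Pearson's r of 0.968 to 0.995 across genes on the log2 CPM scale, and no pair agreed within sampling noise (lowest chi-square per degree of freedom 5.59). The 9 fibroblast markers summed to 19500 to 55300 CPM (counts scaled to a common library size) in each library, and Epcam, which marks epithelial cells, had 0 counts in all of them. EVsub replicate 2 stood apart from the other sub-confluent controls for Notch1, Jag1, Hes1 and Hey1, and results that rest on it are given with and without it. Because these are bulk RNA libraries, fewer cells with a transcript and less of it per cell cannot be told apart.

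The receptors, ligands and targets differed widely in level. Levels between genes are given as CPM per kilobase of exon, on which Notch2 had a mean of 13.2 over the 24 libraries against 0.208 for Notch1 and 0.0431 for Notch3. Notch2 made up at least 95.7% of the summed level of the 3 receptors in every group. Among the ligands Jag1 averaged 7.04 CPM per kb and Jag2 0.0422, and Jag1 made up at least 98.1% of the summed level of the 3 ligands in every group. Hes1 averaged 2.11 CPM per kb, and Hey1 averaged 0.0225. Dll1 had 6 counts in all 24 libraries together, Heyl had 1 and Nrarp had 0.

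**Figure D1:**
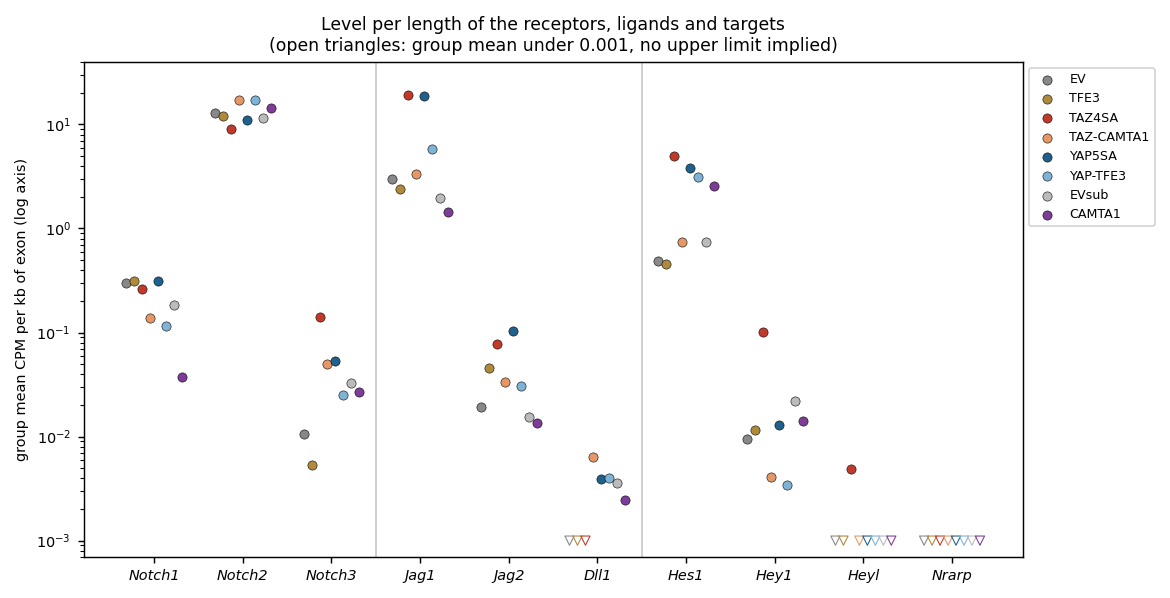
Group means of CPM per kb of exon on a log axis for the 10 genes, ordered as receptors, ligands and targets, with 1 point for each of the 8 groups and open triangles for group means under 0.001. Notch2 and Jag1 lie far above the other receptors and ligands, and Heyl and Nrarp are at or near 0 in every group.

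Of the 10 genes, 6 (Notch1, Notch2, Notch3, Jag1, Jag2 and Hes1) averaged at least 5 counts per library over the 24 libraries and were tested. Dll1, Hey1, Heyl and Nrarp did not pass and are given by their counts only. Notch3 (mean 7.58 counts) and Jag2 (mean 6.21 counts) passed narrowly. Without its highest group the mean was 5.48 for Notch3 and 5.19 for Jag2. Without both YAP5SA and TAZ4SA the mean of Jag2 was under 5. So was that of Notch3 without both TAZ4SA and TAZ-CAMTA1. Both genes therefore owe their test to groups in which they were high.

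Upstream sequence was looked up for the genes, since several of them moved together in cells with TAZ4SA and YAP5SA, whose DNA-binding partners are TEAD factors. RefSeq (GRCm38.p6) gave 8 windows for 7 of the genes. Entries for Hes1, Hey1 and Heyl were not used here. Dll1 had a pair of windows. The 250 bases before each start were searched on both strands for the letters TGGGAA, the core bound by RBPJ, and GGAATG, the core bound by TEAD factors. Part of the searched sequence lies in annotated exons of the gene itself, namely 250 bases for Jag2, 153 for 1 Dll1 window, 124 for Jag1, 11 for Notch2 and 2 for Notch1. TGGGAA was found in 0 of the 8 windows, against 21.6% of all 32851 mouse windows of that length. With 8 windows, and with Hes1, Hey1 and Heyl not searched, no absence was read from this. GGAATG was found only in the window of Notch1, at positions -233 to -228 and -216 to -211 from the start on the minus strand of the window, against 12.6% of all windows. A match is a description of the letters and not a binding site. The windows of Notch1, which holds these letters, and of Notch3 and Jag1, which rose in the comparisons described here, are printed 5′ to 3′ with the TEAD core in capitals, which reads CATTCC because it lies on the opposite strand. Each is on the minus strand and stops before the first base in an annotated exon of the gene. The RefSeq start of Notch1 lies inside the gene's GENCODE span, since another annotated transcript of Notch1 starts further upstream, so this window is intronic to that transcript.
Notch1, chr2:26503825-26504072: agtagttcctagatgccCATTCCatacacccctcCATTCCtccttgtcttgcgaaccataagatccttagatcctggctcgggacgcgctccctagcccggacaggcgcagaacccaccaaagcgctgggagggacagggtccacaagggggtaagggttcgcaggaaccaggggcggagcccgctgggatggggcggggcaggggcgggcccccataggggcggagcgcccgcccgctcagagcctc
Notch3, chr17:32166891-32167140: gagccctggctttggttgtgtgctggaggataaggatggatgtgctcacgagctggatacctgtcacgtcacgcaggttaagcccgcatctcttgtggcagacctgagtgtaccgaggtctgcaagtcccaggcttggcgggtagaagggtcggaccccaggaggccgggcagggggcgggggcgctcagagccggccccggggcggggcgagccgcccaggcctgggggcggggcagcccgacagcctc
Jag1, chr2:137116645-137116770: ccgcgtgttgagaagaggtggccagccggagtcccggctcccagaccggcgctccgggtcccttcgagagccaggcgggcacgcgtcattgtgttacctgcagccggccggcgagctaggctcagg

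Notch2 (mm10 chr3:98013527-98150361, plus strand), the receptor with most of the transcript in these cells, had 145, 119 and 154 CPM in the EV libraries. In TAZ4SA it had 108, 90.0 and 96.0 CPM, and in YAP5SA it had 125, 112 and 120 CPM. TAZ-CAMTA1 had 176, 182 and 200 CPM, and YAP-TFE3 had 210, 183 and 161 CPM. All libraries of both fusion proteins lay above every EV library, and all TAZ4SA libraries lay below them, while YAP5SA overlapped EV. TFE3 (129 ± 8.02, SD, n = 3), EVsub (125 ± 10.6) and CAMTA1 (154 ± 5.82) lay between these extremes. In order of the group means the levels ran TAZ-CAMTA1, YAP-TFE3, CAMTA1, EV, TFE3, EVsub, YAP5SA and TAZ4SA. TAZ-CAMTA1 and YAP-TFE3 differed by 0.01 on the log2 scale (95% interval -0.22 to 0.24), less than their spread, and the means of CAMTA1, TFE3 and EVsub were within 1 SD of EV (18.2 CPM) of the EV mean. Against its own control EVsub, with 121, 117 and 137 CPM, CAMTA1 was higher in every library, at 148, 155 and 160 CPM, but was not called (0.30 ± 0.11 on the log2 scale, adjusted p = 0.152).

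Notch2 was lower in TAZ4SA than in EV. The log2 fold change from edgeR, given here and later with its standard error, was -0.51 ± 0.11 (adjusted p = 0.000469). It was higher in TAZ-CAMTA1 by 0.41 ± 0.11 (adjusted p = 0.00941) and in YAP-TFE3 by 0.40 ± 0.11 (adjusted p = 0.0138). Against EV, YAP5SA was at -0.23 ± 0.11 (adjusted p = 0.0675), and with library totals in place of TMM scaling it was at -0.60 (adjusted p = 0.000207). YAP5SA also passed the threshold with DESeq2 (-0.25, adjusted p = 0.0431) and without EV replicate 2 (-0.33, adjusted p = 0.014). Each fusion protein was set against its full-length counterpart. TAZ-CAMTA1 exceeded TAZ4SA by 0.92 ± 0.11 (adjusted p = 6.72e-07), and YAP-TFE3 exceeded YAP5SA by 0.63 ± 0.11 (adjusted p = 2.66e-05). The call in YAP-TFE3 against EV was lost without YAP-TFE3 replicate 1 (0.27, adjusted p = 0.196) and without EV replicate 2 (0.30, adjusted p = 0.0859). The call in TAZ-CAMTA1 was lost without EV replicate 2 (0.31, adjusted p = 0.0585) and without TAZ-CAMTA1 replicate 3 (0.36, adjusted p = 0.0572). TAZ4SA was below YAP5SA by -0.28 ± 0.11 (adjusted p = 0.0455), a call that was lost in 4 of the 6 fits that left out 1 library and by library totals (-0.08, adjusted p = 0.606).

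Notch1 (mm10 chr2:26457903-26516663, minus strand), the receptor best known from T-cell leukaemia, was sparse and varied between replicates of the controls. The EV libraries had 5.32, 1.72 and 5.71 CPM, and the EVsub libraries had 0.774, 5.98 and 1.14 CPM. CAMTA1 had 0.397, 0.524 and 0.680 CPM, below every EVsub library. YAP-TFE3 had 2.16, 1.21 and 1.57 CPM and TAZ-CAMTA1 had 2.27, 1.49 and 2.08 CPM, and both overlapped EV through its replicate 2. The means of TAZ4SA (3.74 ± 0.284), YAP5SA (4.47 ± 0.628) and TFE3 (4.44 ± 1.62) lay within the range of the EV libraries. The group means ran YAP5SA, TFE3, EV, TAZ4SA, EVsub, TAZ-CAMTA1, YAP-TFE3 and CAMTA1, and neighbours from YAP5SA to YAP-TFE3 differed by less than the larger of their SDs. Exons of Notch1 overlap an antisense transcript, 0610009E02Rik, which had 426 counts in all libraries, and the strand setting of the counting is not given in the sources used here.

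In the fits Notch1 was lower in CAMTA1 than in EVsub, at -2.31 ± 0.59 on the log2 scale (adjusted p = 0.0394). Without EVsub replicate 2, which holds 168 of the counts of that group, the value was -0.83 (adjusted p = 0.57). The call was also lost without any of the 3 CAMTA1 libraries (adjusted p from 0.0666 to 0.179). Notch1 was also lower in YAP-TFE3 than in YAP5SA, by -1.46 ± 0.52 (adjusted p = 0.0161), and the libraries of these groups did not overlap. This call was lost without YAP-TFE3 replicate 2 (-1.27, adjusted p = 0.0675) and by library totals (-1.11, adjusted p = 0.0603). EVsub against EV was not called, and without EVsub replicate 2 it was at -2.14 (adjusted p = 0.00211). Against EV, the values were -1.13 (adjusted p = 0.119) for TAZ-CAMTA1 and -1.39 (adjusted p = 0.0731) for YAP-TFE3, and without EV replicate 2 both passed the threshold (-1.50, adjusted p = 0.0351, and -1.76, adjusted p = 0.0207).

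Notch3 (mm10 chr17:32120820-32166852, minus strand), a receptor known for its role in vascular smooth muscle and pericytes, was near the detection limit in the controls. The EV libraries had 4, 0 and 2 counts, and TFE3 had 1, 2 and 0. TAZ4SA had 15, 12 and 40 counts, YAP5SA had 12, 5 and 7, and TAZ-CAMTA1 had 10, 8 and 11. All libraries of these groups lay above every EV library in CPM. YAP-TFE3 had 5, 8 and 2 counts, CAMTA1 had 3, 5 and 10, and EVsub had 5, 9 and 6. EVsub also lay above EV throughout, while YAP-TFE3 overlapped it. The order of the group means was TAZ4SA (1.13 CPM), YAP5SA (0.435), TAZ-CAMTA1 (0.405), EVsub (0.267), CAMTA1 (0.218), YAP-TFE3 (0.201), EV (0.0858) and TFE3 (0.0430). YAP5SA and TAZ-CAMTA1 differed by less than the SD of YAP5SA, and the means from EVsub to YAP-TFE3 differed by less than the SD of CAMTA1 or of YAP-TFE3.

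Because EV had 6 Notch3 counts in all, ratios of the summed counts are given with exact intervals that cover counting error only. TAZ4SA had 13.4 times the EV level (95% interval 5.82 to 37.7), YAP5SA had 4.83 times (1.93 to 14.5) and TAZ-CAMTA1 had 4.56 times (1.86 to 13.4). EV replicate 1 held 4 of the 6 counts, and without it the ratios were 25.9 (6.91 to 219), 9.39 (2.33 to 82.0) and 8.86 (2.24 to 76.7). Notch3 rose in all 3 groups in the fits, with adjusted p = 2.08e-05, 0.00609 and 0.0245. Without the counts of TAZ4SA and TAZ-CAMTA1, Notch3 would have fallen under the count filter. The call in TAZ-CAMTA1 was lost without EV replicate 2, EV replicate 3 or TAZ-CAMTA1 replicate 3 (adjusted p from 0.0691 to 0.0834). TAZ-CAMTA1 was lower than TAZ4SA by -1.50 ± 0.45 on the log2 scale (adjusted p = 0.00816), but without TAZ4SA replicate 3, the library with 40 counts, it was at -0.99 (adjusted p = 0.0903). TAZ4SA was higher than YAP5SA by 1.41 ± 0.47 (adjusted p = 0.0193), and this call was likewise lost without TAZ4SA replicate 3 (0.90, adjusted p = 0.186) and without YAP5SA replicate 2 (1.11, adjusted p = 0.0927).

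**Figure D2:**
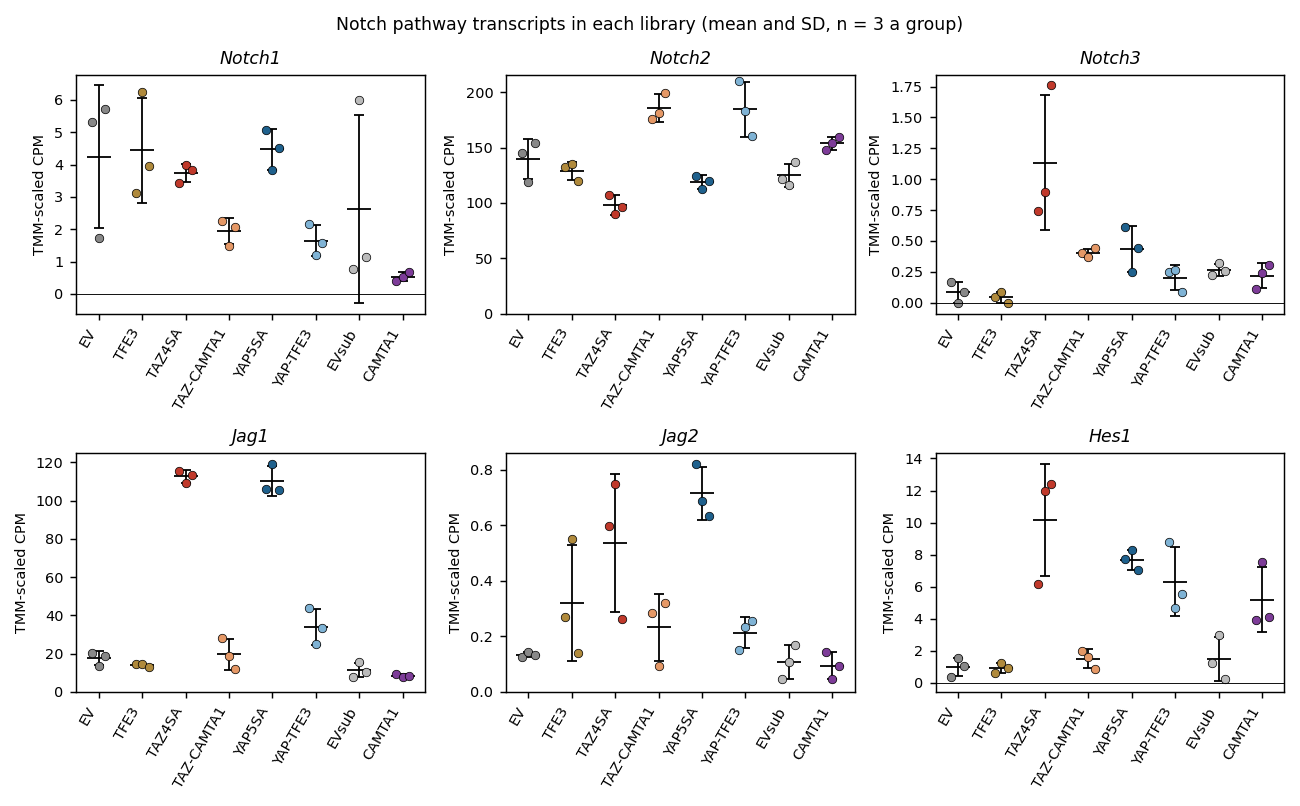
TMM-scaled CPM of the 6 tested genes in each of the 24 libraries, with points for libraries and bars for the mean and SD of each group (n = 3). Jag1 is above 100 CPM in all TAZ4SA and YAP5SA libraries and below 50 CPM in every other library.

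Jag1 (mm10 chr2:137081456-137116644, minus strand), a Jagged-family ligand, was much higher in cells with TAZ4SA or YAP5SA. EV had 20.2, 13.6 and 19.0 CPM. TAZ4SA had 115, 109 and 114 CPM, and YAP5SA had 106, 119 and 105 CPM. These libraries did not overlap those of any other group. YAP-TFE3 had 43.8, 24.9 and 33.6 CPM, above every EV library, while TAZ-CAMTA1 had 28.3, 18.6 and 11.9 CPM, on both sides of EV. The remaining groups were at 14.1 ± 0.737 CPM in TFE3, 11.4 ± 3.85 in EVsub and 8.40 ± 0.794 in CAMTA1. TAZ4SA and YAP5SA, the neighbours at the top, differed by 0.03 on the log2 scale (95% interval -0.45 to 0.52).

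Jag1 rose 6.40-fold in TAZ4SA (log2 fold change 2.68 ± 0.25, adjusted p = 1.49e-08) and 6.26-fold in YAP5SA (2.65 ± 0.25, adjusted p = 5.46e-09). It rose 1.93-fold in YAP-TFE3 (0.95 ± 0.24, adjusted p = 0.00887), and this call was lost without YAP-TFE3 replicate 1 (0.70, adjusted p = 0.109). In TAZ-CAMTA1 it was at 0.15 ± 0.24 (adjusted p = 0.704). Each fusion protein was far below its full-length counterpart. TAZ-CAMTA1 was lower than TAZ4SA by -2.52 ± 0.25 (adjusted p = 5.70e-08), and YAP-TFE3 was lower than YAP5SA by -1.70 ± 0.24 (adjusted p = 1.94e-06). TAZ-CAMTA1 was lower than YAP-TFE3 by -0.80 ± 0.24 (adjusted p = 0.0343), a call that was lost in 4 of the 6 fits that left out 1 library (adjusted p up to 0.195). EVsub was at -0.62 ± 0.25 against EV (adjusted p = 0.0793), and without EVsub replicate 2 it was at -0.92 (adjusted p = 0.024).

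Jag2 (mm10 chr12:112907819-112929776, minus strand), the second Jagged ligand, was detected at a few counts per library. EV had 3, 3 and 3 counts, TAZ4SA had 12, 10 and 6, and YAP5SA had 16, 14 and 10. TAZ4SA and YAP5SA lay above every EV library in CPM. TFE3 had 6, 13 and 4 counts, TAZ-CAMTA1 had 7, 2 and 8, YAP-TFE3 had 3, 7 and 6, CAMTA1 had 4, 1 and 3, and EVsub had 1, 3 and 4. YAP-TFE3 lay just above EV and was not called (adjusted p = 0.529), and the rest overlapped their controls. As ratios of summed counts, YAP5SA had 5.37 times the EV level (95% interval 2.57 to 12.6, counting error only) and TAZ4SA had 3.72 times (1.71 to 8.96). Jag2 rose in both (adjusted p = 0.000346 in YAP5SA and 0.00558 in TAZ4SA), and it was lower in YAP-TFE3 than in YAP5SA by -1.70 ± 0.47 on the log2 scale (adjusted p = 0.00288). TAZ-CAMTA1 against TAZ4SA was at -1.09 ± 0.49 (adjusted p = 0.0649). Without the counts of TAZ4SA and YAP5SA, Jag2 would have fallen under the count filter.

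Dll1 (mm10 chr17:15367354-15376872, minus strand), a Delta-like ligand, had at most 1 count in any library and was above 0 in 6 of the 24. A count of 0 allows up to 3 counts, which is 0.0928 to 0.225 CPM depending on the library, so no difference in Dll1 was detectable at this depth.

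Hes1 (mm10 chr16:30064384-30067796, plus strand), a basic helix-loop-helix repressor and a direct target of Notch in many tissues, had 0.380, 1.53 and 1.06 CPM in EV. TAZ4SA had 6.15, 12.0 and 12.4 CPM, YAP5SA had 7.75, 8.29 and 7.03 CPM, and YAP-TFE3 had 8.78, 4.69 and 5.52 CPM. All of these libraries lay above every EV library, and so did those of CAMTA1, at 3.93, 7.52 and 4.14 CPM. TAZ-CAMTA1 had 2.02, 1.63 and 0.878 CPM and overlapped EV. TFE3 was at 0.930 ± 0.299 CPM, and EVsub had 1.28, 2.99 and 0.254 CPM. In order the group means ran TAZ4SA, YAP5SA, YAP-TFE3, CAMTA1, TAZ-CAMTA1, EVsub, EV and TFE3. Neighbouring means in the first 4 differed by less than the larger of their SDs, and so did those in the last 4.

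Hes1 rose 10.3-fold in TAZ4SA (log2 fold change 3.37 ± 0.53, adjusted p = 1.44e-05), 7.84-fold in YAP5SA (2.97 ± 0.53, adjusted p = 3.54e-05) and 6.41-fold in YAP-TFE3 (2.68 ± 0.53, adjusted p = 0.00103). In TAZ-CAMTA1 it was at 0.62 ± 0.58 (adjusted p = 0.486). The fusion proteins therefore stood differently to their full-length counterparts. Hes1 was lower in TAZ-CAMTA1 than in TAZ4SA by -2.75 ± 0.50 (adjusted p = 9.85e-05), while YAP-TFE3 against YAP5SA was at -0.29 (95% interval -1.22 to 0.64). The difference between these differences, tested as an interaction, was -2.46 ± 0.67 (adjusted p = 0.00793), and it passed the threshold in all 12 fits that left out 1 library. TAZ-CAMTA1 was lower than YAP-TFE3 by -2.06 ± 0.50 (adjusted p = 0.009), and without TAZ-CAMTA1 replicate 3 this value was -1.78 (adjusted p = 0.0615). CAMTA1 against EVsub was at 1.74 ± 0.50 (adjusted p = 0.0668), and without EVsub replicate 2 it was at 2.77 (adjusted p = 0.0252).

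Hey1 (mm10 chr3:8663359-8667256, minus strand), a Hairy-related repressor, had 5, 3 and 12 counts in TAZ4SA. It had at most 3 counts in every other library except EVsub replicate 2, with 6. The summed counts were 20 in TAZ4SA and 2 in EV, a ratio of 11.9 with a 95% interval of 2.90 to 106 for counting error only, and YAP5SA also had 2. Without EV replicate 1 the ratio was 7.74 (1.88 to 68.3). Heyl (mm10 chr4:123233556-123249875, plus strand) had its 1 count in a TAZ4SA library, and Nrarp (mm10 chr2:25180758-25183339, plus strand) had no count in any library. For these genes a change below 3 counts in a library could not be seen.

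**Figure D3:**
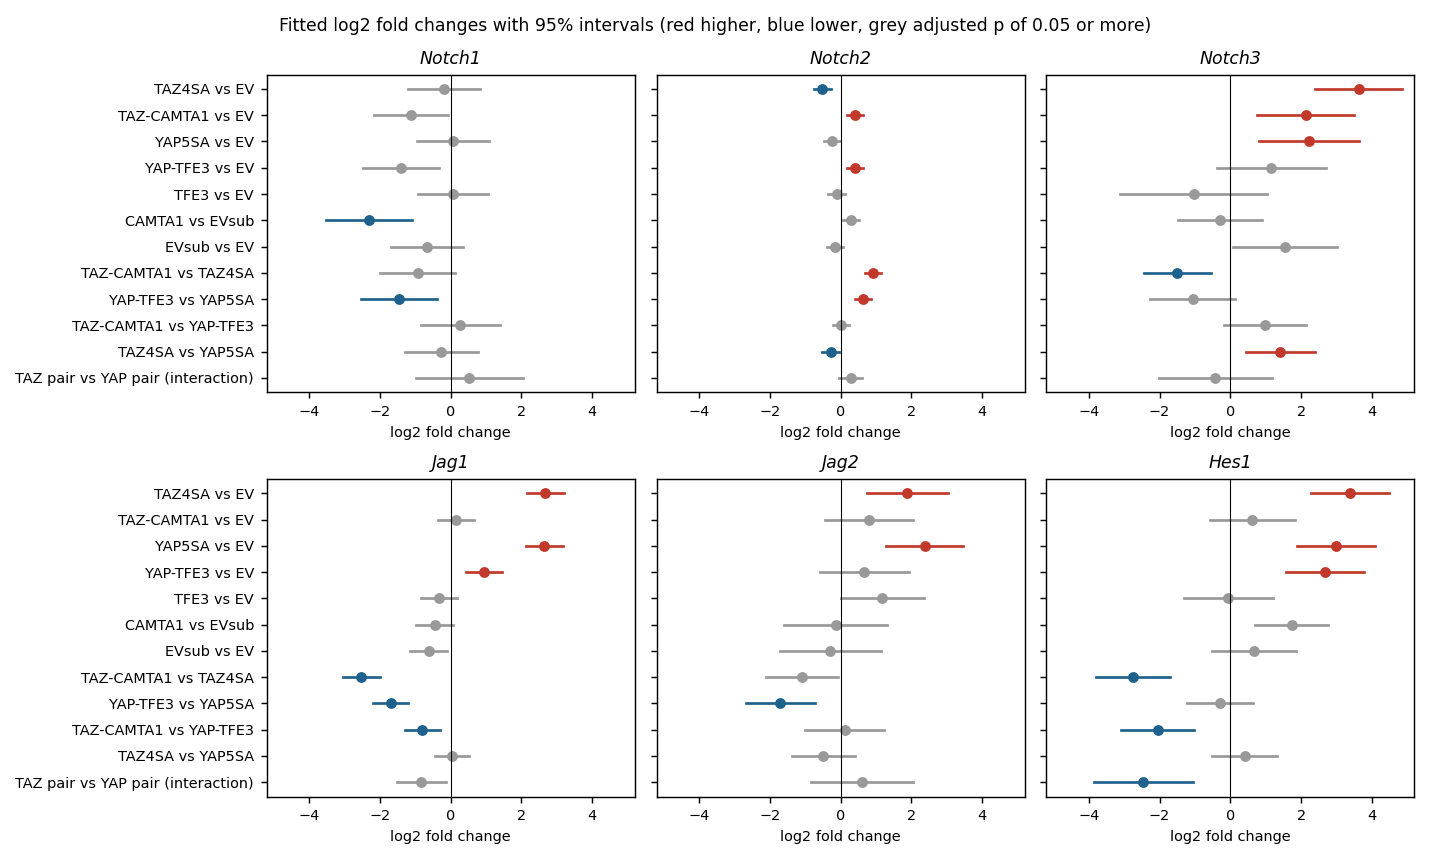
Fitted log2 fold changes of the 6 tested genes in 12 comparisons, with 95% intervals, coloured where the adjusted p was under 0.05. Jag1 and Hes1 are called higher in TAZ4SA and YAP5SA, and the interaction of the TAZ and YAP pairs is called for Hes1 alone.

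The calls were set beside those of all 14361 genes tested, at an adjusted p under 0.05. In TAZ4SA against EV, 4 of the 6 tested Notch genes were higher (Jag1, Hes1, Notch3 and Jag2) and 1 was lower (Notch2), where 57.5% of all genes were called, 31.1% higher and 26.4% lower. In YAP5SA against EV, 4 were higher (Jag1, Hes1, Jag2 and Notch3) and 0 were lower, where 71.2% of all genes were called, 36.3% higher and 34.9% lower. Calls were frequent among all genes in both comparisons, so these counts alone do not set the Notch genes apart. The median absolute log2 fold change of all genes was 0.54 in TAZ4SA and 0.81 in YAP5SA. Over the 6 tested Notch genes the median log2 fold change was 2.29 in TAZ4SA and 2.30 in YAP5SA, against 0.05 and 0.01 over all genes. These medians are descriptions, since they cover 6 genes that were chosen with earlier results of these data known. The sparse Notch3 and Jag2 are among these genes. Where the libraries were scaled by their totals alone, 41.9% of the calls in TAZ4SA and 34.5% of those in YAP5SA were higher, in place of 54.1% and 51.0%, and the median of all genes moved to -0.12 and -0.36, while the called Notch genes kept their directions.

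In TAZ-CAMTA1 against EV, 2 Notch genes were higher (Notch2 and Notch3) and 0 were lower, where 21.5% of all genes were called, 12.5% higher and 8.98% lower. In YAP-TFE3 against EV, 3 were higher (Hes1, Jag1 and Notch2) and 0 were lower, where 15.3% of all genes were called, 10.6% higher and 4.74% lower. In TFE3 against EV, edgeR called 0 of the 6, with 1 (Jag2) at an unadjusted p under 0.05 and 0 called by DESeq2, where 3.38% of all genes were called. In EVsub against EV, edgeR called 0, with 2 (Jag1 and Notch3) at an unadjusted p under 0.05 and 1 (Jag1) called by DESeq2, where 22.1% of all genes were called. In CAMTA1 against EVsub, 1 was lower (Notch1), where 2.18% of all genes were called, 1.29% higher and 0.891% lower.

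Between the introduced proteins, TAZ-CAMTA1 against TAZ4SA had 1 Notch gene higher (Notch2) and 3 lower (Jag1, Hes1 and Notch3), where 54.7% of all genes were called, 26.6% higher and 28.1% lower. YAP-TFE3 against YAP5SA had 1 higher (Notch2) and 3 lower (Jag1, Jag2 and Notch1), where 70.9% of all genes were called, 36.4% higher and 34.5% lower. TAZ-CAMTA1 against YAP-TFE3 had 2 lower (Jag1 and Hes1), where 11.6% of all genes were called, 5.32% higher and 6.32% lower. TAZ4SA against YAP5SA had 1 higher (Notch3) and 1 lower (Notch2), where 42.4% of all genes were called, 22.8% higher and 19.6% lower. The interaction called 1 (Hes1, lower), where 31.4% of all genes were called, 14.0% higher and 17.5% lower. By library totals alone, the share of calls that were higher moved from 48.5% to 62.0% in TAZ-CAMTA1 against TAZ4SA, from 51.4% to 67.6% in YAP-TFE3 against YAP5SA, from 53.8% to 72.6% in TAZ4SA against YAP5SA and from 44.5% to 28.2% in the interaction. Comparisons that share the EV libraries are not independent of each other.

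Single fibroblast markers moved in both directions under their sum. Against EV, Pdgfra, Pdgfrb and Fn1 were called lower and Thy1 higher in both TAZ4SA and YAP5SA. In YAP5SA Pdgfra was at 0.186-fold, Thy1 at 5.13-fold and Vim, also called higher, at 2.29-fold. In both fusion groups Pdgfrb was called lower, and Thy1 and Col1a1 were called higher. Single markers of other cell types moved with some of these groups as well. Of the 5 endothelial markers, Kdr had 9.63 CPM in TAZ4SA, 6.42 in YAP5SA, 0.877 in YAP-TFE3 and 0.813 in TFE3 against 0.0749 in EV, and it was called higher in all 4 groups, while Tek was called lower in TAZ4SA and YAP5SA. Cdh5 had 1.67 CPM in TAZ-CAMTA1, 0.380 in YAP5SA, 0.272 in YAP-TFE3 and 0.254 in TAZ4SA against 0.0148 in EV, and it passed the count filter only through TAZ-CAMTA1. Pecam1 had 106 counts and Tie1 had 4 counts in all 24 libraries together. The summed endothelial level was 8.49 to 12.1 CPM in TAZ4SA, 7.46 to 8.21 in YAP5SA, 4.27 to 4.94 in TAZ-CAMTA1, 2.78 to 4.81 in YAP-TFE3 and 2.34 to 4.51 in EV.

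Of the 3 blood markers, Cd68 alone was called in TAZ4SA (12.7-fold higher) and YAP5SA (21.0-fold higher), and Cd14 alone in TAZ-CAMTA1 (3.02-fold) and YAP-TFE3 (2.29-fold), while Ptprc had 29 counts in all. Their sum was 15.9 to 59.7 CPM in TAZ4SA, 49.5 to 81.9 in YAP5SA, 9.46 to 11.6 in TAZ-CAMTA1, 9.38 to 10.2 in YAP-TFE3 and 5.40 to 7.02 in EV. The sum of the 4 smooth muscle markers was mostly Acta2, which was called higher in YAP-TFE3 (1379 CPM), TAZ-CAMTA1 (564 CPM) and EVsub (829 CPM) than in EV (283 CPM) and had 1119 CPM in CAMTA1. Tagln was not called in either fusion group, was lower in TAZ4SA and was higher in YAP5SA. In YAP5SA Acta2 was called lower than in EV (0.585-fold). Cnn1, with 158 counts in all, was called higher in TAZ4SA (5.41-fold) and YAP5SA (4.84-fold). Cnn1 would have fallen under the count filter without the counts of these groups. Myh11, with 135 counts in all, had 0.732 CPM in TAZ4SA and 0.683 in YAP5SA against 0.0710 in EV. It passed the count filter only through TAZ4SA. The summed smooth muscle level was 1130 to 1940 CPM in YAP-TFE3, 509 to 669 in TAZ-CAMTA1, 212 to 305 in TAZ4SA, 316 to 356 in YAP5SA and 248 to 390 in EV. The 5 epithelial markers summed to 0.103 to 1.15 CPM over all libraries, and of these Cdh1 was called higher in TAZ-CAMTA1 (3.12-fold) and YAP-TFE3 (3.08-fold) and lower in TAZ4SA and YAP5SA, with 0.664, 0.654, 0.0396 and 0.0335 CPM against 0.208 in EV. Cdh1 had 157 counts in all and would have fallen under the count filter without the counts of TAZ-CAMTA1 and YAP-TFE3. The part of these markers in the Notch results was not tested.

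The other genes of the pathway numbered 61, of which 52 passed the filter. Their calls are given beside the share of all genes called in the same comparison. In TAZ4SA against EV 16 were higher and 19 lower (67.3% called, 57.5% of all genes), with a median log2 fold change of 0.09, and in YAP5SA 18 were higher and 24 lower (80.8%, 71.2% of all genes), with a median of -0.17. TAZ-CAMTA1 had 9 higher and 8 lower (32.7%, 21.5% of all genes), and YAP-TFE3 had 9 higher and 3 lower (23.1%, 15.3% of all genes). TFE3 had 1 higher and 2 lower (5.77%, 3.38% of all genes), CAMTA1 had 0 higher and 1 lower against EVsub (1.92%, 2.18% of all genes), and EVsub had 4 higher and 10 lower against EV (26.9%, 22.1% of all genes). TAZ-CAMTA1 had 18 higher and 13 lower against TAZ4SA (59.6%, 54.7% of all genes) and 4 higher and 8 lower against YAP-TFE3 (23.1%, 11.6% of all genes). YAP-TFE3 had 26 higher and 14 lower against YAP5SA (76.9%, 70.9% of all genes), TAZ4SA had 17 higher and 12 lower against YAP5SA (55.8%, 42.4% of all genes), and the interaction had 6 higher and 17 lower (44.2%, 31.4% of all genes). The counts include Dll4, which passed the count filter only through YAP5SA.

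The counts by role stand against the same shares of all genes, 71.2% in YAP5SA, 57.5% in TAZ4SA, 21.5% in TAZ-CAMTA1 and 15.3% in YAP-TFE3, each against EV. All 10 genes of receptor cleavage were called in YAP5SA against EV (6 higher, 4 lower), 8 in TAZ4SA, 4 in YAP-TFE3 (all higher) and 3 in TAZ-CAMTA1. Of the 16 genes of the nuclear complex and its corepressors, 12 were called in YAP5SA (4 higher, 8 lower), 10 in TAZ4SA, 7 in TAZ-CAMTA1 and 3 in YAP-TFE3. Of the 14 genes of ligand and receptor trafficking, 11 were called in YAP5SA, 8 in TAZ4SA, 2 in YAP-TFE3 and 1 in TAZ-CAMTA1. With 10 to 16 genes a role, nothing particular to a role was read from these counts.

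**Figure D4:**
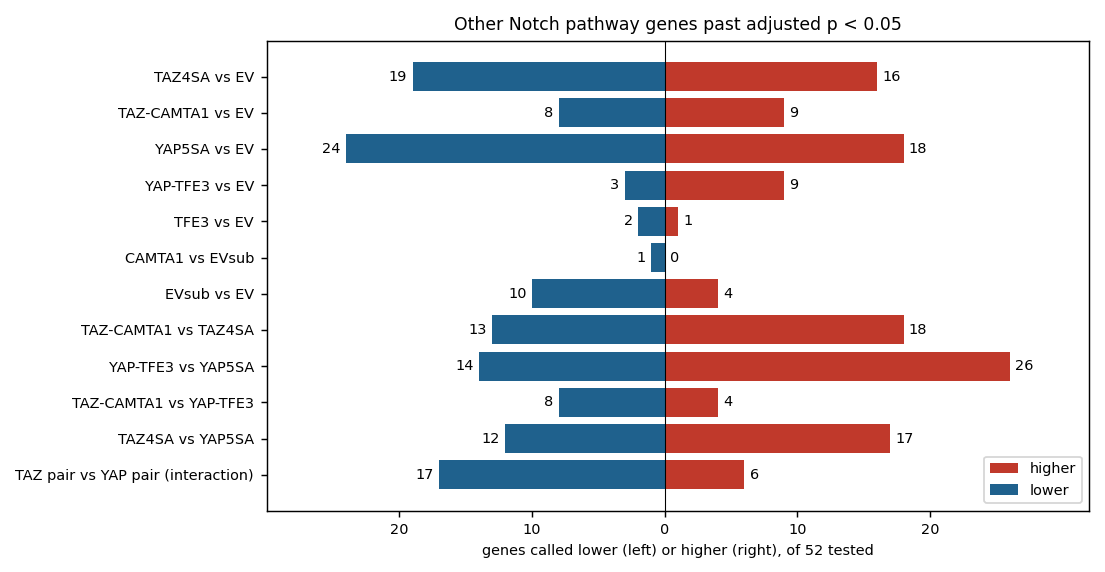
Number of the 52 tested other pathway genes called lower (left, blue) or higher (right, red) at an adjusted p under 0.05 in each of 12 comparisons. Calls are most frequent in the comparisons with TAZ4SA or YAP5SA, in which calls over all genes are also most frequent.

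Among the remaining receptors and ligands, Dll4, a Delta-like ligand of endothelial tip cells, had 5 counts in EV, 41 in TAZ4SA and 96 in YAP5SA, summed over 3 libraries. Its mean was 7.71 counts per library with YAP5SA and 4.24 without it, so it passed the filter only through the group in which it was highest, and its values are given with no test. The ratio of counts to EV was 9.80 in TAZ4SA (95% interval 3.88 to 31.8, counting error only) and 23.2 in YAP5SA (9.60 to 73.1), and without EV replicate 1 these were 15.9 (4.12 to 136) and 37.6 (10.1 to 315). YAP-TFE3 had 15 counts and TAZ-CAMTA1 had 10. Notch4, a mainly endothelial receptor, had 24 counts in EV, 2 in YAP5SA and 37 in YAP-TFE3, and it was called lower in YAP5SA than in EV (ratio of counts 0.101, 95% interval 0.0115 to 0.406, adjusted p = 0.00274) and higher in YAP-TFE3 than in YAP5SA (ratio 14.0, 3.62 to 120, adjusted p = 0.000384). Without YAP5SA replicate 1 the ratios were 0.155 (0.0177 to 0.624) and 9.12 (2.35 to 78.1). Dlk1, a non-canonical ligand known for keeping preadipocytes undifferentiated, was abundant, at 1367 ± 411 CPM in EV. It fell to 383 ± 139 CPM in TAZ4SA and 288 ± 95.7 CPM in YAP5SA (adjusted p = 0.000161 and 1.00e-05), and it was lower in CAMTA1 than in EVsub (333 ± 162 against 1127 ± 404 CPM, log2 fold change -1.76 ± 0.36, adjusted p = 0.0105). Its relative Dlk2 rose in TAZ-CAMTA1 (3.26 ± 0.42, adjusted p = 5.97e-06), YAP-TFE3 (1.85 ± 0.43, adjusted p = 0.00452), YAP5SA (2.61 ± 0.43, adjusted p = 1.16e-05) and EVsub (2.73 ± 0.42, adjusted p = 0.000109), each against EV. Dner had 85 counts and Dll3 had 4 counts in all 24 libraries.

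Other genes act on the receptor or its ligands up to cleavage. Pofut1, which adds the O-linked fucose that ligands recognise, went from 85.2 ± 11.2 CPM in EV to 19.2 ± 9.58 in TAZ4SA and 7.58 ± 0.775 in YAP5SA. It fell in both (log2 fold change -2.14 and -3.49, adjusted p = 4.58e-08 and 3.64e-11), and it was higher in YAP-TFE3 than in YAP5SA by 4.14 ± 0.24 (adjusted p = 5.80e-12). Lfng, the Lunatic fringe glycosyltransferase, was higher in TAZ-CAMTA1 than in TAZ4SA by 2.08 ± 0.24 (adjusted p = 3.86e-07) and than in YAP-TFE3 by 1.46 ± 0.23 (adjusted p = 0.000133). Aph1c, a gamma-secretase subunit, was lower in TAZ-CAMTA1 than in YAP-TFE3 by -1.58 ± 0.18 (adjusted p = 4.80e-06). Neurl1a, an E3 ligase of the Neuralized family, was higher in TAZ-CAMTA1 (1.92 ± 0.22, adjusted p = 1.61e-06) and YAP-TFE3 (1.36 ± 0.23, adjusted p = 0.000162) and lower in TFE3 (-1.26 ± 0.27, adjusted p = 0.00872), each against EV. It was also higher in TAZ4SA (1.25), YAP5SA (0.84) and EVsub (0.83).

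In the nucleus, Tle2, a Groucho-family corepressor, went from 42.3 ± 7.79 CPM in EV to 4.84 ± 2.05 in TAZ4SA and 0.573 ± 0.113 in YAP5SA. Its log2 fold changes were -3.10 ± 0.24 (adjusted p = 1.02e-09) and -6.19 ± 0.32 (adjusted p = 7.67e-13). Maml3, a Mastermind-like coactivator, fell as well in TAZ4SA (-2.22 ± 0.20), YAP5SA (-3.69 ± 0.22), TAZ-CAMTA1 (-1.26 ± 0.19) and YAP-TFE3 (-0.60 ± 0.18, adjusted p = 0.0264). Rbpj itself, the DNA-binding partner of the receptor, was lower in TFE3 than in EV (-0.45 ± 0.11, adjusted p = 0.0207) and higher in TAZ-CAMTA1 than in YAP-TFE3 (0.54 ± 0.11, adjusted p = 0.0015). Against EV it was higher in TAZ-CAMTA1 (0.73 ± 0.11), TAZ4SA (0.39 ± 0.11) and EVsub (0.34 ± 0.11) and lower in YAP5SA (-0.45 ± 0.11). Of the other Hes and Hey relatives, Hes7 rose from 5 counts summed over the EV libraries to 44 in TAZ4SA (adjusted p = 0.000142), 73 in YAP5SA (adjusted p = 4.33e-06) and 23 in TAZ-CAMTA1 (adjusted p = 0.0468), with ratios of 10.5 (95% interval 4.18 to 34.0, counting error only), 17.6 (7.22 to 56.0) and 4.34 (1.61 to 14.6). Hes7 averaged 7.71 counts per library and 5.33 without YAP5SA, and it would have fallen under the count filter without both YAP5SA and TAZ4SA. Like Notch3 and Jag2, it owes its test to groups in which it was high. Bhlhe40, a related repressor, was lower in TAZ4SA (-1.17 ± 0.23), YAP5SA (-1.59 ± 0.23), TAZ-CAMTA1 (-1.56 ± 0.23, adjusted p = 3.66e-05), YAP-TFE3 (-0.74 ± 0.23, adjusted p = 0.0279) and EVsub (-0.79 ± 0.23, adjusted p = 0.0154) than in EV. Its summed counts were highest in TFE3. Of the 4 tested genes among these relatives and related repressors, 1 was called higher and 0 lower in TFE3 against EV. Of all genes 3.38% were called in that comparison, 2.36% higher and 1.02% lower, and with 4 genes nothing was read from this count.

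The genes whose levels ran most like each Notch gene over the 24 libraries were named by Pearson's r of log2 CPM, among tested genes averaging 50 or more counts per library. The libraries share their groups, so these values are descriptions. Jag1 was followed most closely by Ppp1r15a (r = 0.964), Ppp2r5b (0.957) and Slc6a12 (0.952), and Notch2 by Kank1 (0.912), Dag1 (0.892) and Ppp1r12b (0.873). For Hes1 they were Fhl1 (0.877), Rasgrp3 (0.866) and Cgnl1 (0.851), and for Notch1 they were Ephb4 (0.838), Arhgef7 (0.837) and Pcnx (0.836). The sparse genes gave Angptl6 (0.880), Atp2b4 (0.876) and Glis2 (0.860) for Notch3 and Dedd2 (0.901), Ezh1 (0.887) and Foxo3 (0.884) for Jag2.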

How the data were processed

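RNA was measured in 24 libraries of NIH 3T3 cells, 3 for each of 8 groups. For polyadenylated RNA the authors made strand-specific libraries, processed the reads with bcbio-nextgen and Hisat2 on the mm10 genome, and deposited raw counts per Ensembl gene. The study's methods also name Salmon with tximport for gene-level counts. Whether the deposited whole-number counts came from these or from the Hisat2 alignments, and the strand setting, are not given in the sources used here. Groups and replicate numbers came from the labels. For YAP-TFE3 replicate 3 the description names another replicate, and the title was used.

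Counts were scaled by TMM and tested with the two-sided quasi-likelihood test of edgeR 4.0.16 in R 4.3.3, in 1 fit of all libraries, with Benjamini-Hochberg adjustment over the 14361 genes that averaged 5 or more counts. A gene was called at an adjusted p under 0.05. Levels are CPM on TMM-scaled totals, and per kb they were divided by the union of exons of GENCODE (GRCm38, the same assembly as mm10). Of the identifiers, 37693 matched that annotation. The p-values measure the spread between separate transductions of 1 cell line. Total counts per library set the precision, and intervals on summed counts and the floor of 3 counts cover counting error only. The scripts were tested on simulated data.

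All 10 genes are named. Of the other pathway genes, those called with the largest changes are named, at most 3 per direction and comparison, with any receptor or ligand of the list. For each tested gene, the 3 genes most alike are named. The genes and lists were chosen with earlier results of these data known. Alternatives were DESeq2 1.42.0, its size factors in edgeR, library totals without TMM (added after the TMM factors were seen), other filters, a replicate block, fits of only the groups compared, leaving out each library, a minimum change and another gene length.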

Additional observations from a re-analysis of the deposited data

Results flagged for a closer look

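For Hes1, the change from the full-length protein to the fusion protein differed between the TAZ pair and the YAP pair by -2.46 ± 0.67 on the log2 scale, in a test of the interaction itself (adjusted p = 0.00793). Within the pairs, Hes1 was at -2.75 in TAZ-CAMTA1 against TAZ4SA and at -0.29 in YAP-TFE3 against YAP5SA. Leaving out each of the 12 libraries in turn gave values from -2.74 to -2.16, with adjusted p from 0.00524 to 0.0274.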

How the results depend on the processing

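Of the 28 calls of a single gene, 17 held in every fit that left out 1 library, among them all calls of Jag1, Hes1, Jag2 and Notch3 in TAZ4SA or YAP5SA against EV. For Jag2 and Notch3 these fits cannot show how far the test depends on the groups in which they were high. The count filter was set once, on all 24 libraries. No call changed direction under any alternative run. Of 936 recomputed log2 fold changes, 872 were counted as unchanged, 35 lost the threshold and 27 gained it. Those counted as unchanged include values that were not called and changed sign by at most 1 standard error. The remaining 2 were not called and changed sign by more than that. They were Jag1 in TAZ-CAMTA1 against EV (-0.21 without TAZ-CAMTA1 replicate 1) and Hes1 in EVsub against EV (-0.37 without EVsub replicate 2). Leaving out 1 library gave 5 to 5 genes called in TAZ4SA against EV, 0 to 2 in TAZ-CAMTA1 against EV, 4 to 5 in YAP5SA against EV, 1 to 3 in YAP-TFE3 against EV, 0 to 0 in TFE3 against EV, 0 to 1 in CAMTA1 against EVsub, 0 to 2 in EVsub against EV, 4 to 4 in TAZ-CAMTA1 against TAZ4SA, 3 to 4 in YAP-TFE3 against YAP5SA, 0 to 2 in TAZ-CAMTA1 against YAP-TFE3, 0 to 2 in TAZ4SA against YAP5SA and 1 to 2 in the interaction of the TAZ and YAP pairs. Requiring at least 10 counts in every library removed Hes1, Notch3 and Jag2 from the test, and the counts became 2 in TAZ4SA against EV, 1 in TAZ-CAMTA1 against EV, 2 in YAP5SA against EV, 2 in TAZ-CAMTA1 against TAZ4SA, 1 in TAZ-CAMTA1 against YAP-TFE3, 0 in TAZ4SA against YAP5SA and 0 in the interaction. A required change of at least 1 on the log2 scale left 1 call in each of TAZ-CAMTA1 against EV, YAP-TFE3 against EV, TAZ-CAMTA1 against YAP-TFE3 and TAZ4SA against YAP5SA. DESeq2 called 2 in CAMTA1 against EVsub and 1 in EVsub against EV, and so did edgeR with no filter on low counts, which also called 2 in the interaction. Fitting only the groups compared gave 0 in CAMTA1 against EVsub, 1 in TAZ-CAMTA1 against YAP-TFE3 and 0 in TAZ4SA against YAP5SA. Library totals without TMM gave 1 in TAZ4SA against YAP5SA and 2 in the interaction. The causes of these changes were not tested, apart from the genes removed by the filter.

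With the replicate number as a replicate block, the number of Notch genes called was 5 for TAZ4SA, 2 for TAZ-CAMTA1, 4 for YAP5SA, 3 for YAP-TFE3 and 0 for TFE3 against EV, 1 in CAMTA1 against EVsub, 0 in EVsub against EV, 4 in both comparisons of a fusion protein with its full-length counterpart, 2 and 2 in the remaining pairs and 1 in the interaction. In CAMTA1 against EVsub the 1 gene was Hes1 (1.81, adjusted p = 0.0488) in place of Notch1 (-2.25, adjusted p = 0.0645). Same-numbered libraries deviated from their group means with correlations of -0.21 to 0.41, and in 0 comparisons were all 3 above 0.1, so the numbers were not taken as pairs. With the longest transcript as the length, Notch1 moved from 0.208 to 0.312 CPM per kb, and the order of the receptors and of the ligands stayed. Depth limits Dll1, Hey1, Heyl and Nrarp, and Notch3 and Jag2 in the controls.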
